A study of Arabidopsis thaliana with 12 samples.

Results

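The genotype by cordycepin interaction is the change in log2 signal over 60 min of cordycepin in xrn3-8 seedlings minus the same change in Col-0 seedlings. It was computed for each of 22746 probe sets, which are all 22810 probe sets of the array apart from 64 Affymetrix controls, and all 12 arrays of the series enter it. Whole Arabidopsis thaliana seedlings were grown on MS plates in long days and collected 14 days after stratification. The 4 groups were wild type Col-0 and the xrn3-8 line, each before treatment (0 min) and each after 60 min in 150 mg/l cordycepin, with 3 arrays a group. The labels name the xrn3-8 allele without its lesion, and no other allele or complemented line is among the samples. They hold no mock-treated group at 60 min, so cordycepin and 60 min of handling cannot be told apart in either change. XRN3 itself has no named probe set, so the genotype was not checked on it.

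XRN3 is a 5'-to-3' exoribonuclease of the nucleus. When a transcript is cut at its polyadenylation site, such enzymes chase RNA polymerase II along the downstream RNA and help to end transcription, and where they are impaired transcripts can run on past the ends of genes. Cordycepin lacks the 3' hydroxyl that a growing RNA chain needs, and it is used in plants to block RNA synthesis so that the loss of existing transcripts can be followed. A value above 0 means that a transcript fell less, or rose more, in xrn3-8 than in Col-0, and a value below 0 means the opposite. Levels stand relative to the other probe sets on the same array, so a rise need not be new RNA.

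The interaction passed limma's test at an adjusted p under 0.05 for 1830 probe sets, which is 8.05% of those tested, against 4837 at an unadjusted p under 0.05. Of the 1830, 1155 lay above 0 (5.08%) and 675 below 0 (2.97%), so 63.1% were above. The quartiles over all probe sets were -0.12 and 0.17, the median was 0.023 and the median SE was 0.136. The smallest size called was 0.343, and the extremes, -4.16 and 2.26, lay on probe sets that the probe annotation does not list and that are unnamed here. Changes in the 2 genotypes, which share no array, had a Pearson r of 0.84 across the 22746 probe sets, which are not independent of each other. That split depended on the scaling. It was 456 above and 1682 below, or 21.3% above, with each array centred on the Bacillus subtilis control probe sets, 233 and 374 (38.4%) with the hybridization controls, and 785 and 732 (51.7%) with 4 housekeeping genes. Centring adds the same amount to every interaction, and the median interaction became -0.14, -0.046 and -0.017, so the order of transcripts by interaction stayed the same. Without replicate 2 of xrn3-8 at 0 min the calls were 792 above and 441 below.

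The arrays of a group were close to each other, with a Pearson r of 0.9952 to 0.9977. The root mean square deviation of an array from its group mean was 0.138 for replicate 3 of xrn3-8 at 60 min and 0.0924 to 0.114 for the others. The labels number the replicates and do not say that they were separate plates or batches of plants, so p-values measure the spread between these samples, which may be technical. Of the markers of leaf and of root, 2 of 7 each had a named probe set. The Rubisco activase RCA (interaction 0.03, adjusted p = 0.925 in limma) had group means of 12.81 to 13.03. Interactions of the light-harvesting protein LHCB4.2 (0.59, adjusted p = 0.0118) and of PYK10 (-0.51, adjusted p = 0.0204), the main beta-glucosidase of root ER bodies, did pass, the latter with -0.50 (adjusted p = 0.0509) without xrn3-8 0 min replicate 1 and -0.45 (adjusted p = 0.0631) without replicate 2, and that of the root hair expansin EXPA7 (-0.47, adjusted p = 0.0697) did not. No marker of flower or seed, of 5 each, had a named probe set. The part of a changed tissue mixture in the results was not tested. In whole seedlings, fewer cells of a type and less RNA per cell cannot be told apart.

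**Figure D1:**
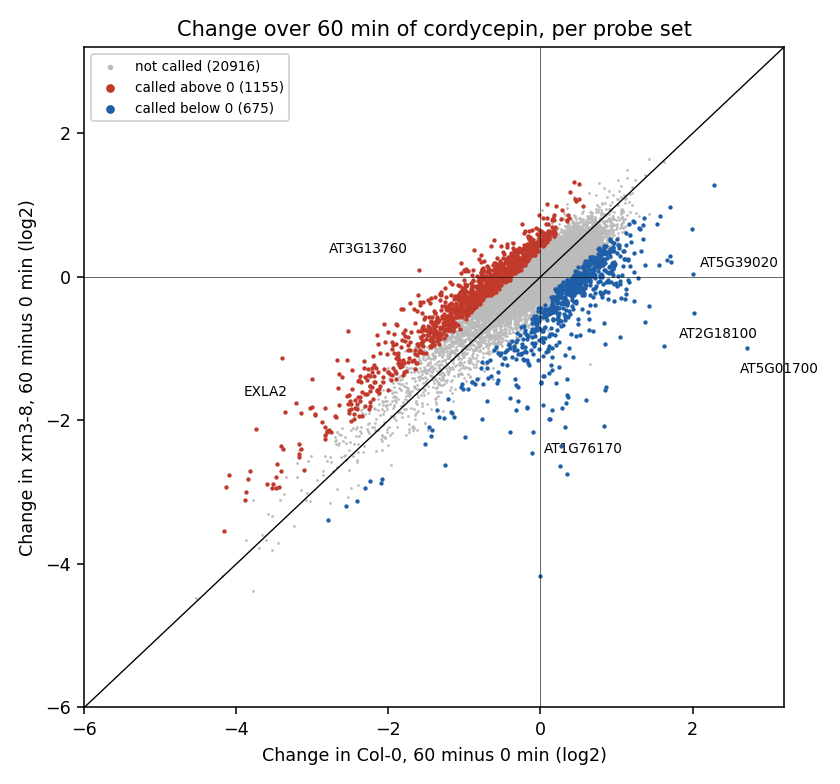
Change over 60 min of cordycepin in Col-0 (x axis, log2) against that in xrn3-8 (y axis, log2), 1 point per probe set, with equal change on the diagonal. The 1155 probe sets called above 0 lie over the diagonal, mostly where both changes are negative, and the 675 called below 0 lie under it, with AT5G01700 and AT1G76170 among those farthest out.

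The commonest pattern was a smaller fall in the mutant. Of the 1830 probe sets, 944 (51.6%) fell in Col-0 and fell less, or did not pass the test, in xrn3-8, with a median change of -0.95 in Col-0 and -0.31 in xrn3-8. In 527 of them the fall passed in both genotypes, with medians of -1.35 and -0.67. Another 44 fell in Col-0 and rose in xrn3-8, and 166 rose more in xrn3-8, in 155 of which the change in Col-0 did not pass. Below 0, 363 rose less in xrn3-8, 234 fell more in it, and 76 rose in Col-0 and fell in xrn3-8. In 293 of the 363 the change in xrn3-8 did not pass, and in 160 of the 234 the change in Col-0 did not. The remaining 3 passed in neither genotype. These names follow the deposited scale. With the Bacillus subtilis controls as the centre, 445 fell less and 1158 fell more, with the hybridization controls 221 and 230, and with housekeeping genes 762 and 470. In the same order of centres, the 166 that rose more in xrn3-8 became 7, 9 and 13, and the 44 became 4, 2 and 10. The 363 became 281, 100 and 150, and the 76 became 243, 43 and 112. Single arrays also moved smaller patterns by over 1.5 times. The count of 44 fell to 17, 20, 28 and 29 without xrn3-8 0 min replicate 1, xrn3-8 0 min replicate 2, Col-0 0 min replicate 3 and Col-0 60 min replicate 3. Leaving out the first 3 of these arrays took the 166 to 70, 82 and 85, and without xrn3-8 0 min replicate 2 the 363 became 216. Calls in single genotypes share arrays with the interaction and describe it only. For comparison, the change over 60 min passed for 46.3% of probe sets in Col-0 and 40.4% in xrn3-8, as a fall for 20.1% and 15.9%.

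The interaction followed the size of the shared change. The change averaged over both genotypes is arithmetically independent of the interaction in this balanced design. Among the 195 probe sets whose average change was at most -2, 36.41% were called above 0 and 4.1% below 0, with a median interaction of 0.35. Between -2 and -1 the shares of 737 probe sets were 26.46% and 5.16%, with a median of 0.25, and between -1 and -0.5 those of 1524 were 20.28% and 5.25%, with a median of 0.20. The 19019 probe sets with little average change had 2.97% called above and 2.36% called below, and a median of 0.02. On the rising side the balance turned. Of 1230 probe sets with an average rise of 0.5 to 1, 1.3% were called above and 7.4% below, with a median of -0.10, and of the 41 over 1 none was called above and 9 below, with a median of -0.03. On the deposited scale the interaction lay above 0 for 77.4%, 71.2% and 71.8% of probe sets in the falling bins, in that order. The share above 0 was 53.9% in the middle bin and 32.0% and 41.5% in the rising ones.

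**Figure D2:**
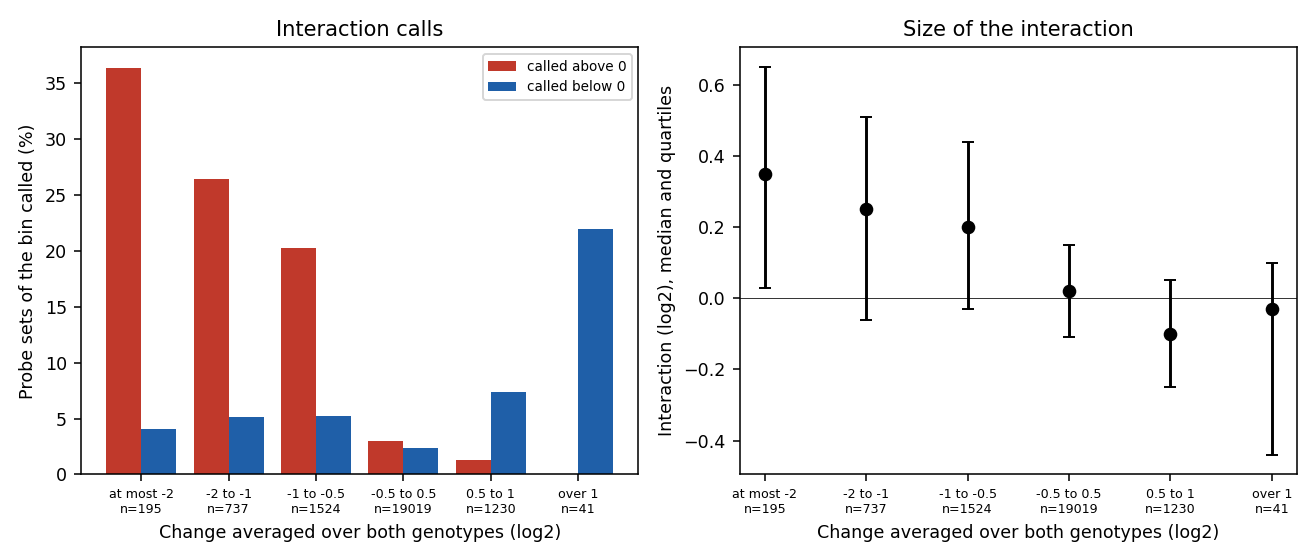
Probe sets in bins of the change averaged over both genotypes (x axis, log2), with the share called above 0 and below 0 on the left (%) and the median interaction with its quartiles on the right (log2). The share called above 0 goes from 36.41% in the most strongly falling bin to none of 41 in the most strongly rising one, and the medians go from 0.35 to -0.10 and -0.03.

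The average genotype difference was related to the calls in another way, with more calls on both sides of equality. Of 258 probe sets more than 2-fold higher in xrn3-8 on average over both times, 20.54% were called above and 19.77% below. Of 243 that were 2-fold to 4-fold lower, 9.47% were above and 18.52% below. The 54 at least 4-fold lower had smaller shares than these 243, with 5.56% above and 11.11% below. In the 20119 within 0.5 of equality the shares were 4.36% and 2.1%.

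The largest interactions lay below 0. At least a 2-fold difference between the changes was found for 110 called probe sets below 0 and 72 above 0. The 110 were low in untreated Col-0 and high in untreated xrn3-8, with median log2 signals of 4.12 in Col-0 at 0 min, 4.75 in Col-0 at 60 min, 5.84 in xrn3-8 at 0 min and 4.43 in xrn3-8 at 60 min. Before treatment 85 of the 110 were higher in xrn3-8 and 9 lower, where 14.3% of all probe sets were higher and 17.6% lower. At 60 min 33 were higher and 44 lower, against 16.6% and 15.6% of all. The median genotype difference went from 1.19 to -0.12. Of the 110, 67 rose in Col-0 and 79 fell in xrn3-8, where 26.3% of all probe sets rose in Col-0 and 15.9% fell in xrn3-8. Not all of them converged, since AT5G39020 was level between the genotypes before treatment and apart after it. In 23 of the 110 (20.9%) at least 1 group mean lay below the lower quartile of its arrays, where signal and background cannot be separated without detection calls, and in 12 both Col-0 means did. The genotype differences at each time and the changes in each genotype share arrays with the interaction. They are parts of the value by which the 110 were picked, so they describe it only.

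AT5G01700 had the largest interaction of any named gene. Its log2 signals were 3.65, 3.74 and 3.89 in Col-0 at 0 min, 6.53, 6.39 and 6.52 in Col-0 at 60 min, 7.56, 7.58 and 7.58 in xrn3-8 at 0 min, and 6.56, 6.61 and 6.58 in xrn3-8 at 60 min. The genotypes stood far apart before treatment and lay close together at 60 min, where the genotype difference of 0.10 did not pass (adjusted p = 0.366). The rise of 2.72 in Col-0 and the fall by 0.99 in xrn3-8 gave an interaction of -3.71 ± 0.11 (SE, 3 arrays a group, limma adjusted p = 9.13e-12). The reference table gives it no symbol, and its role is not described here.

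AT2G18100 converged in the same manner. Col-0 arrays read 3.8, 3.53 and 4.04 before cordycepin and 5.92, 5.67 and 5.83 after it, and xrn3-8 arrays read 6.95, 6.87 and 7.06 before and 6.38, 6.40 and 6.61 after. The 4 groups did not overlap and xrn3-8 stayed above Col-0. Its interaction was -2.51 ± 0.16 (adjusted p = 1.41e-07, limma). AT1G74400 crossed over, with a genotype difference of 1.72 at 0 min and -0.86 at 60 min, for an interaction of -2.58 ± 0.15, although its Col-0 mean of 2.90 at 0 min lay below the arrays' lower quartile. AT4G27270, with an interaction of -2.40, rose by 0.86 in Col-0 and fell by 1.54 in xrn3-8.

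In other genes the wild type hardly moved and the mutant fell. AT1G76170 read 4.91, 4.81 and 4.74 in Col-0 at 0 min and 4.71, 4.87 and 4.54 at 60 min, while xrn3-8 went from 8.99, 9.0 and 9.22 to 6.49, 6.49 and 6.87. After 60 min the mutant kept 18.3% of its starting signal on the linear scale and the wild type 92.4%. The change in Col-0 of -0.11 did not pass (adjusted p = 0.442), that in xrn3-8 of -2.45 did (adjusted p = 6.08e-11, limma), and the interaction was -2.34 ± 0.16 (adjusted p = 2.66e-07). NRPD7, a subunit of the plant-specific RNA polymerase IV that serves small RNA production, behaved likewise. Its signals were 3.16, 3.13 and 2.92 in Col-0 at 0 min, 3.2, 2.92 and 2.80 in Col-0 at 60 min, 5.81, 5.98 and 5.81 in xrn3-8 at 0 min and 3.69, 3.83 and 3.61 in xrn3-8 at 60 min. The Col-0 groups overlapped and both xrn3-8 groups lay above them. An interaction of -2.06 ± 0.15 (adjusted p = 4.92e-07, limma) resulted, with the Col-0 mean at 60 min below the lower quartile of the arrays. AT1G56670 (-2.11), AT4G27510 (-2.11), AT1G19190 (-2.31) and AT2G44510 (-2.09) also fell in xrn3-8, to between 25.4% and 30.6% of their starting signal. Of these, the last 2 rose in Col-0, by 0.60 and 0.33, and the changes of the others in Col-0 did not pass. The Col-0 mean of AT1G19190 at 0 min, 2.99, lay below the arrays' lower quartile.

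MBAC1, a mitochondrial carrier of basic amino acids, was measured well above the low end of the scale. Col-0 gave 4.97, 5.07 and 5.02 and then 5.17, 5.07 and 5.29, and xrn3-8 gave 7.18, 7.06 and 7.33 and then 6.01, 6.07 and 6.12. The mutant stayed above the wild type at both times, and its fall by 1.12 against a change of 0.16 in Col-0 that did not pass (adjusted p = 0.155) made an interaction of -1.28 ± 0.12 (adjusted p = 8.12e-06, limma).

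In a further group of genes the rise in Col-0 had no passing counterpart in xrn3-8, and the interaction is the test of that difference. AT5G39020 read 4.68, 4.29 and 4.72 in Col-0 at 0 min and 6.54, 6.60 and 6.56 at 60 min, while xrn3-8 read 4.42, 4.46 and 4.54 and then 4.47, 4.58 and 4.50. Only the treated Col-0 arrays stood apart. The rise was 2.0 in Col-0 and the change 0.04 in xrn3-8 (adjusted p = 0.755), and the interaction was -1.96 ± 0.14 (adjusted p = 4.11e-07, limma). AT5G22540 rose by 1.67 in Col-0, changed by 0.24 in xrn3-8 (adjusted p = 0.155) and had an interaction of -1.43. For AT1G19025 (-1.57) the other probe set of the gene gave -0.05 (adjusted p = 0.905), so the gene is uncertain. PDF1.2, a defensin induced by jasmonate and ethylene, was at 4.82, 4.92 and 4.62 in Col-0 and rose to 5.93, 5.73 and 6.17, and in xrn3-8 it was at 3.85, 3.88 and 4.01 and then at 4.26, 4.03 and 4.22. The mutant was lower at both times. The interaction was -0.90 ± 0.16 (adjusted p = 0.00218, limma), and the change in xrn3-8 did not pass (adjusted p = 0.0773). MAP1B, a methionine aminopeptidase, rose by 0.93 in Col-0 and changed by -0.07 in xrn3-8 (adjusted p = 0.642), for an interaction of -1.0.

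**Figure D3:**
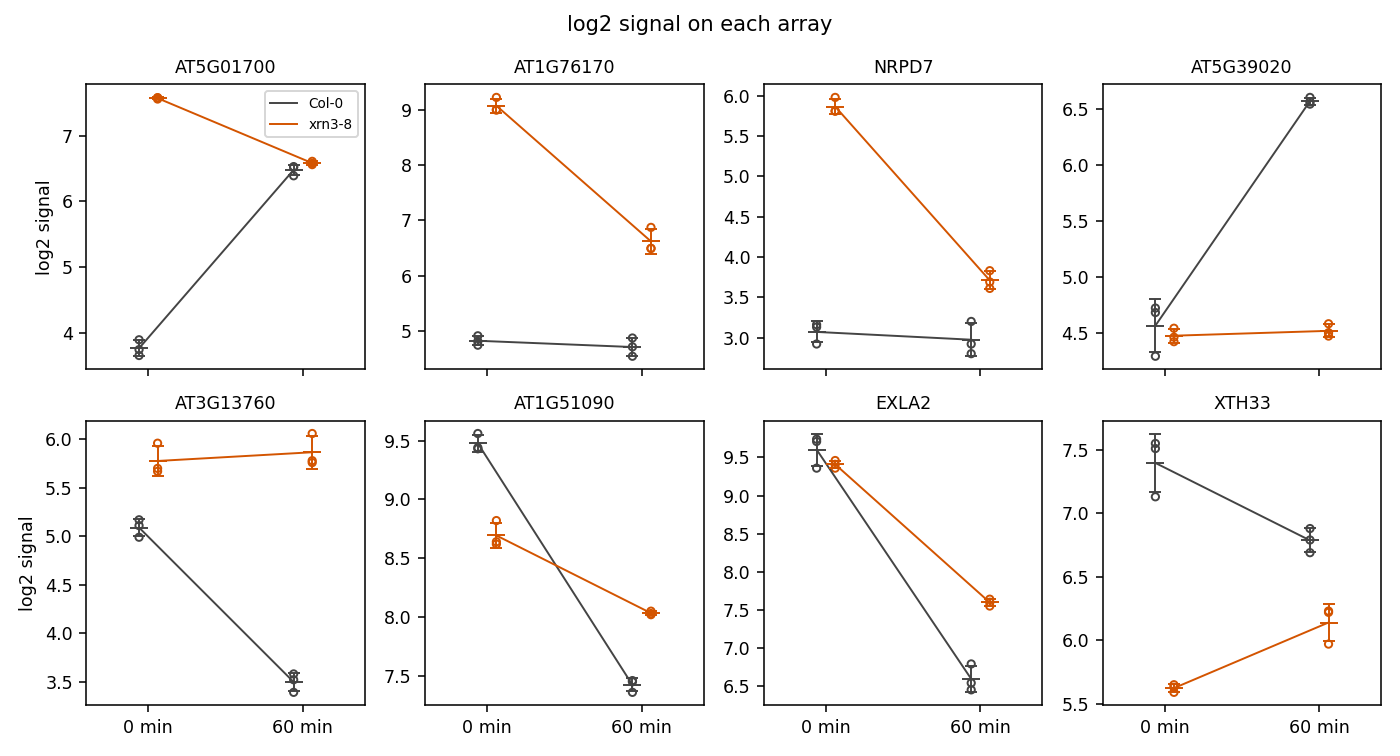
log2 signal (y axis) of 8 genes on each of the 12 arrays at 0 and 60 min (x axis), Col-0 in grey and xrn3-8 in orange, with circles for arrays, bars for the mean ± SD of 3 arrays and lines between means. The upper genes have interactions from -3.71 (AT5G01700) to -1.96 (AT5G39020) and the lower ones from 1.13 (XTH33) to 1.68 (AT3G13760).

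Above 0 the 72 probe sets with at least a 2-fold difference all fell in Col-0, and 50 of them also fell in xrn3-8. Of all probe sets, 20.1% fell in Col-0 and 15.9% in xrn3-8. The 72 were well expressed before treatment, with median signals of 7.39 in Col-0 and 6.96 in xrn3-8. In 2 of them a group mean lay below the lower quartile. At 60 min the medians were 5.26 and 5.92. The median genotype difference went from -0.32 to 0.86. At 0 min 9 of the 72 were higher in xrn3-8 and 39 lower, against 14.3% and 17.6% of all probe sets. At 60 min 57 were higher and 6 lower, against 16.6% and 15.6% of all. These genotype differences and the changes in each genotype share arrays with the interaction. They are parts of the value by which the 72 were picked, so they describe it only.

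AT3G13760 had the largest positive interaction of a named gene. It read 5.11, 4.99 and 5.17 in Col-0 at 0 min and 3.52, 3.58 and 3.39 at 60 min, and in xrn3-8 it read 5.70, 5.67 and 5.96 and then 6.06, 5.76 and 5.78. The wild type kept 33.1% of its signal and the change in the mutant, 0.09, did not pass (adjusted p = 0.508). The interaction was 1.68 ± 0.14 (adjusted p = 2.69e-06, limma). AT4G32350 began level, at means of 7.68 in Col-0 and 7.70 in xrn3-8, and ended at 5.0 and 6.54, so that 15.7% was left in Col-0 and 44.9% in xrn3-8 (interaction 1.52 ± 0.15, adjusted p = 1.33e-05, limma). AT1G51090 fell in Col-0 from 9.43, 9.56 and 9.44 to 7.46, 7.36 and 7.45, and in xrn3-8 from 8.62, 8.64 and 8.82 to 8.05, 8.02 and 8.03. The genotypes changed places between the times, and no groups overlapped (interaction 1.39 ± 0.11, adjusted p = 1.18e-06, limma). Among the others of the 10 largest, AT5G01740 had the deepest fall, to 5.82% in Col-0 and 14.7% in xrn3-8, and AT1G54050 was the only other one besides AT3G13760 whose change in xrn3-8, -0.25, did not pass (adjusted p = 0.154).

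Genes with a symbol included parts of several cell functions. EXLA2, an expansin-like wall protein, read 9.36, 9.71 and 9.74 in Col-0 and fell to 6.79, 6.54 and 6.45, and read 9.41, 9.36 and 9.46 in xrn3-8 and fell to 7.64, 7.60 and 7.55. Untreated groups overlapped and treated ones did not. After 60 min 12.4% remained in Col-0 and 28.5% in xrn3-8 (interaction 1.2 ± 0.15, adjusted p = 0.000125, limma). ELC, an ESCRT-I component that sorts ubiquitinated membrane proteins, fell to 36.8% in Col-0 and 81.2% in xrn3-8 (interaction 1.14). KICP-02, a kinesin motor protein, fell to 24.2% and 53.2% (interaction 1.14). XTH33, a xyloglucan-modifying enzyme, moved in opposite directions. Its Col-0 arrays went from 7.13, 7.51 and 7.55 to 6.79, 6.88 and 6.69 and its xrn3-8 arrays from 5.65, 5.63 and 5.59 to 6.23, 5.97 and 6.22. The mutant was the lower genotype at both times, by 1.77 and then by 0.65, and the interaction was 1.13 ± 0.15 (adjusted p = 0.000264, limma). AT5G43520 also moved in opposite directions, with a fall by 0.65 in Col-0 and a rise of 0.43 in xrn3-8 (interaction 1.08), and the mutant was lower by 2.09 before treatment and by 1.01 after it. In the pattern of a larger rise in xrn3-8 the neighbouring locus codes AT2G44370 (0.88) and AT2G44380 (0.94) stood out, with changes of -0.01 and 0.09 in Col-0 that did not pass (adjusted p = 0.928 and 0.524) and rises of 0.87 and 1.02 in xrn3-8. GAT1_2.1, a glutamine amidotransferase, had an interaction of 0.91 on the brighter of its probe sets and -0.11 on the other (adjusted p = 0.6), so it is uncertain, and OCT1 (0.94), an organic cation transporter, lost its call in 6 of the 12 fits without 1 array, with 0.69 to 1.11.

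Gene families and pathways are described by counts and medians beside those of all probe sets. Of all, 5.08% were called above 0 and 2.97% below, with a median of 0.023. Values above 0 made up 53.9% of the 19019 probe sets with little average change. Of 48 lists, 33 had at least 5 measured members. Of the 96 measured genes for cytosolic ribosomal proteins, none was called above 0 and 8 (8.3%) below, and 11 had a value above 0, with a median of -0.20. Ribosomal protein transcripts are abundant and long-lived as a rule, and 77 of the 96 rose relative to the average probe set in Col-0 and 26 in xrn3-8, against 26.3% and 24.5% of all probe sets, with median changes of 0.34 and 0.14. AT5G47700 read 9.61, 9.53 and 9.58 in Col-0 at 0 min and 10.24, 10.09 and 10.23 at 60 min, and in xrn3-8 it read 10.23, 10.27 and 10.23 and then 10.31, 10.41 and 10.07. Only the untreated Col-0 arrays lay lower (interaction -0.59 ± 0.13, adjusted p = 0.00776, limma). AT2G45710 (-0.52) and AT5G22440 (-0.48) followed, with -0.57 to -0.42 and -0.54 to -0.43 without 1 array, where they lost the call in 4 and 3 of 12 fits. The list's median stayed below 0 in every setting tried, from -0.36 to -0.18, but the count did not hold. It was 0 with the hybridization controls as the centre, 36 with the Bacillus subtilis controls, 21 with a signal-dependent prior variance and 13 without the dimmest 40% of probe sets, and it was 3 without Col-0 0 min replicate 3, 4 without Col-0 60 min replicate 2, 3 without xrn3-8 0 min replicate 1, 2 without xrn3-8 0 min replicate 2 and 5 without xrn3-8 60 min replicate 3.

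Of the 69 plastid-encoded genes measured, 4 were called above 0 and none below. The share above, 5.8%, was near the 5.08% of all probe sets. The median was 0.12 and 45 of the 69 had values above 0, against 53.9% of probe sets with little average change. The 4 called were psbD and psbC, for the D2 and CP43 proteins of photosystem II, and rps2 and rpl14 for plastid ribosomal proteins. psbD read 9.87, 9.45 and 9.30 in Col-0 at 0 min and 9.12, 9.19 and 9.59 at 60 min, and in xrn3-8 it read 8.28, 8.36 and 8.55 and then 8.86, 9.11 and 9.44. The Col-0 groups overlapped and only the untreated mutant lay below all other arrays (interaction 0.98 ± 0.23, adjusted p = 0.0138, limma). psbC, whose reading frame overlaps that of psbD and which is transcribed together with it, had an interaction of 0.77 ± 0.16 and is not independent of it. Values for rps2 and rpl14 were 0.54 and 0.68. The 4 changed by -0.24 to -0.02 in Col-0 and by 0.49 to 0.74 in xrn3-8, and 28 of the 69 rose in xrn3-8 and 11 in Col-0, where 24.5% and 26.3% of all probe sets did, a difference that was not tested. Plastid RNA is mostly made by RNA polymerases of the plastid and mostly lacks long poly(A) tails, on which standard array labelling relies. The plastid median ranged from -0.04 to 0.18 over the settings, and the count of 4 did not hold. It was 10, with 1 below 0, under a signal-dependent prior variance, 6, with 1 below, under the replicate block, and 2 with Bacillus subtilis controls (1 below) or housekeeping genes as the centre. Among the fits without 1 array it was 11 without xrn3-8 60 min replicate 1, 9 without xrn3-8 0 min replicate 3, and 2 without Col-0 0 min replicate 1 or 3, Col-0 60 min replicate 1, xrn3-8 0 min replicate 1 or 2, or xrn3-8 60 min replicate 2 (1 below) or 3.

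In 2 of the enzyme and transporter families, UDP-glycosyltransferases and NPF transporters, several members were called, all above 0. Of all probe sets, 5.08% were called above 0 and 2.97% below. Other enzyme families had calls both ways, with 1 above and 2 below of 28 cytochrome P450 genes. Of 29 serine carboxypeptidase-like genes, 1 was above and 1 below. Of 14 glutathione transferases, 1 was called above 0 (7.1%) and none below. Of 51 UDP-glycosyltransferases, which attach sugars to hormones and secondary metabolites, 5 (9.8%) were above and none below, with a median of 0.10. UGT85A2 fell from 9.36, 9.09 and 9.14 to 7.01, 6.94 and 7.05 in Col-0 and from 8.36, 8.37 and 8.44 to 7.06, 7.21 and 7.22 in xrn3-8. The mutant was lower before treatment by 0.81, and the genotype difference after it, 0.16, did not pass (adjusted p = 0.167) (interaction 0.97 ± 0.12, adjusted p = 0.000124, limma). The others were UGT88A1 (0.82), UGT71C3 (0.72), UGT84A3 (0.57) and UGT76E2 (0.45), and UGT71C3 lost its call in 6 of the 12 fits without 1 array, with 0.62 to 0.85. Of 11 NPF transporters, which carry nitrate, peptides and other small molecules, 3 (27.3%) were above and none below, with a median of 0.16. GTR1, a glucosinolate transporter, fell from 10.49, 10.57 and 10.52 to 8.48, 8.43 and 8.48 in Col-0 and from 10.35, 10.39 and 10.27 to 9.14, 9.02 and 9.01 in xrn3-8, so the treated groups did not overlap (interaction 0.78 ± 0.10, adjusted p = 0.000225, limma). The synonyms name AT3G21670 as NPF6.4 and AT1G59740 as NPF4.3, both at 0.77, and neither change in xrn3-8 passed (-0.03 and -0.02, adjusted p = 0.826 and 0.901). GTR2, a relative of GTR1, had 0.48 and did not pass (adjusted p = 0.0664). The glycosyltransferase count was 3 without Col-0 0 min replicate 1, without xrn3-8 0 min replicate 3 and with quantile normalization, 2 with the hybridization controls as the centre, and 2, with 1 below 0, with the Bacillus subtilis controls. The medians of the glycosyltransferases and the NPF transporters changed sign, to -0.06 and -0.01 at the lowest, over the settings.

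Genes for cell wall loosening were called in both directions. Of 6 measured, EXLA2 (1.2) and EXLA1 (0.70) were above 0, and EXPA4 (-1.04), EXPA8 (-0.68) and EXPA15 (-0.50) below, so both expansin-like A genes had a smaller fall in xrn3-8 and all 3 called alpha expansins had a value below 0. EXPA4 read 4.93, 4.83 and 4.84 in Col-0 at 0 min, 5.38, 5.42 and 5.74 in Col-0 at 60 min, 6.0, 6.36 and 5.87 in xrn3-8 at 0 min and 5.69, 5.68 and 5.67 in xrn3-8 at 60 min. Treated groups overlapped, and untreated ones were 1.21 apart (adjusted p = 0.000946 for the interaction, limma). EXPA8 did not pass in 8 of the 12 fits without 1 array, with -0.81 to -0.49, and the count called below 0 was 1 to 3 over all settings. EXLA1 lost its call with the hybridization controls as the centre.

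Among regulators of stress and hormone responses the lists are short, with 9 members or fewer each, so single calls make up large shares. Of all probe sets, 5.08% were called above 0 and 2.97% below. Of 9 stress transcription factors, 6 fell in Col-0 and 7 in xrn3-8, where 20.1% and 15.9% of all probe sets did. The 1 called (11.1%) was BZIP28 of the ER stress response, which fell by 1.16 in Col-0 and by 0.46 in xrn3-8 (0.69 ± 0.12, adjusted p = 0.002, limma). WRKY22, a factor of immune signalling, fell by 2.08 and 1.57 without a passing interaction (0.50, adjusted p = 0.0905). Of 7 WRKY factors in all, WRKY47 (0.49) and ZAP1 (0.41) were called above 0, the former in 1 of the 12 fits without 1 array. Of 8 early auxin genes, the homeodomain factor HAT2 was called, and it fell to 17.3% in Col-0 and 29.2% in xrn3-8 (0.75). Of 8 calmodulin-like calcium sensors, CML41 (0.86) and CML42 (0.72) fell in Col-0 with changes of 0.15 and 0.12 in xrn3-8 that did not pass (adjusted p = 0.363 and 0.308). The 9 plant U-box ubiquitin ligases split, with PUB43 (0.82) and PUB49 (0.46) above 0 and PUB24 (-0.80) below. PUB24, which dampens immune responses, was at 4.39, 4.32 and 4.67 in Col-0, then at 4.72, 4.79 and 4.88, and in xrn3-8 at 4.23, 3.95 and 4.08 and then at 3.68, 3.74 and 3.45. It rose in the wild type and fell in the mutant, and its relatives PUB22 (-0.15) and PUB26 (-0.14), which fell by over 1 in both genotypes, did not pass (adjusted p = 0.643 and 0.661). With the hybridization controls as the centre BZIP28, HAT2, CML42, WRKY47 and PUB49 lost their calls.

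Of 6 iron deficiency genes, 2 (33.3%) were called, both below 0, where 2.97% of all probe sets were called below and 5.08% above. BHLH101, a transcription factor of the iron deficiency response, read 3.02, 2.81 and 2.82 and then 2.52, 2.46 and 2.65 in Col-0, and 3.97, 4.57 and 4.05 and then 2.75, 2.95 and 2.62 in xrn3-8. Only the untreated mutant stood clear, and 3 of the 4 group means lay below the arrays' lower quartile (interaction -1.08 ± 0.19, adjusted p = 0.00201, limma). AT1G47400 was higher in the mutant by 1.90 before treatment and by 0.54 after it (-1.36 ± 0.26, adjusted p = 0.00393, limma). Both were called in every setting that tested them. The other 4, PYE (-0.07, adjusted p = 0.775) among them, did not pass. The iron regulator bHLH121, which is outside this list, was called the other way (0.65, adjusted p = 0.00245, limma).

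RNA decay and exosome factors, a group of interest for an exoribonuclease mutant, had 11 of 12 values above 0. Of probe sets with little average change, 53.9% had a value above 0. The list's median was 0.13, from -0.03 to 0.19 over the settings, against 0.023 for all probe sets. Of the 12, 1 was called above 0 (8.3%), against 5.08% of all. The called gene was AT3G46960 (0.51 ± 0.14, adjusted p = 0.0387, limma), which did not pass in 8 of the 12 fits without 1 array, with 0.45 to 0.60. Among the remaining families the cytochrome P450 genes of subfamily 71B were called in both directions, out of 28 P450 genes. CYP71B37 (-0.85) and CYP71B29 (-0.70) were below 0 and CYP71B26 (0.59) above. Both xrn3-8 means of CYP71B37, 2.89 and 2.95, lay below the arrays' lower quartile. CYP71B26 lost its call in 8 of the 12 fits without 1 array, with 0.45 to 0.71. The fructose transporter SWEET17 (-0.75) and the peroxidase Prx37 (-0.80) were called below 0 among 16 SWEET and 6 peroxidase genes, Prx37 with -0.70 (adjusted p = 0.0528) without xrn3-8 0 min replicate 2. Of 989 pseudogenes and transposable elements, 3 were above and 4 below, or 0.3% and 0.4%, at a mean log2 signal of 2.66. No member was called among 5 proteasome subunits, 7 tubulins, 8 histones, 12 auxin-responsive genes of the SAUR and related families or 15 mitochondrial genes.

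Flanking genes were set beside the interaction since impaired termination can carry transcription from one gene into the next. For each gene the more strongly expressed of the measured flanking protein-coding genes, as the reference annotation (TAIR10.1) orders them, was taken with its level in untreated Col-0. The median level of that neighbour was 6.38 for the 45 of 66 named genes at least 2-fold below 0 that had one, and 28.9% of them had a neighbour over 8. The same values were 5.83 and 20.9% for all genes called below 0, 5.15 and 10.9% for those called above 0, and 5.27 and 13.1% for all named genes. No test was run on these shares, and strand was not used. Of the 10 genes named for the largest negative interactions, 7 had a measured neighbour, and none of these neighbours passed the interaction test. AT5G01710 beside AT5G01700 had a signal of 10.42 and an interaction of 0.30 (adjusted p = 0.111, limma), and AT4G27280 beside AT4G27270 had 11.18 and -0.07 (adjusted p = 0.845). Beside AT4G32350, with 1.52, the neighbour AT4G32360 was called the other way (-0.86 ± 0.20, adjusted p = 0.0151, limma).

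**Figure D4:**
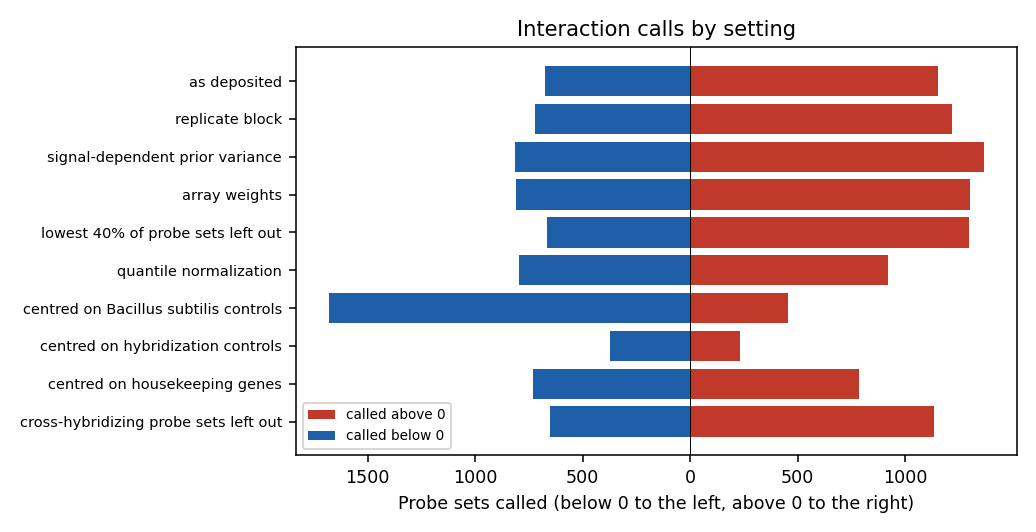
Probe sets called below 0 (to the left) and above 0 (to the right) as deposited and under 9 other settings of the fit or the scaling. The bars keep to 651 to 815 below and 1133 to 1369 above except with the control probe sets as the centre, where they are 1682 and 456 (Bacillus subtilis) or 374 and 233 (hybridization controls), and with quantile normalization or housekeeping genes, where they are near even at 798 and 922 and at 732 and 785.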

How the data were processed

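Total RNA of 12 seedling samples was labelled with biotin as cRNA and hybridized to Affymetrix arrays of 22810 probe sets, per the labels' protocols. The authors deposited log2 signals, 1 per probe set and array, between 1.74 and 13.22. The 12 columns have nearly equal quartiles, so they had been normalized between arrays before deposition. The submitters' processing notes name affy 1.48.0 and limma 3.26.9, and how background was corrected, arrays were normalized and probes were summarised was not given in the sources used here. The number of arrays limits the precision, and no detection calls were used.

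With limma 3.58.1 (R 4.3.3), lmFit was run on the deposited values with a mean for each group, and eBayes moderated the variances (7.964 prior degrees of freedom beside 8 residual). The interaction contrast was tested two-sided with Benjamini-Hochberg adjustment over 22746 probe sets at 0.05. No filter on low signals was used. The fit was tested on simulated data. Probe sets were named through the platform annotation and looked up by Entrez number in RefSeq's gene list of TAIR10.1. Exactly 1 gene was given for 13513, several for 503 and none here for 8730, and 13436 of the 13513 were matched. These stand for 13355 genes, 147 with more than 1 probe set, of which the one with the highest mean was used, and 1535 have a symbol. Named genes are the 10 largest called interactions in each direction, the 8 largest in each direction with a symbol, the 3 largest per pattern and up to 4 per list with at least 5 measured members. Further called members of lists were named where the count called was 5 or fewer, after their values were seen, as were the flanking genes. The members, lists and rules were chosen with earlier results of these data known. Part of the 48 lists was written after the probe annotation was seen. A planned count of promoter motifs was not run, and no sequences were used here.

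Same-numbered arrays of different groups had correlated deviations from their group means of -0.086 to 0.176, not all over 0.1, so the numbers were not taken as pairs. Alternatives were a replicate block, array weights, a prior variance that follows the signal, filters, other scalings, stricter thresholds, the linear scale and leaving out each array.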

Additional observations from a re-analysis of the deposited data

Results flagged for a closer look

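All results here were picked because the change over 60 min differed between Col-0 and xrn3-8 by the interaction test of limma (adjusted p under 0.05). They comprise the 1155 probe sets above 0, the 675 below 0 and the 82 called genes among those named by rule. No cause was tested for any of them.

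Of the leading genes above 0, the report does not give AT1G22810 (1.39), AT3G62590 (1.35), AT3G25400 (1.35), AT1G21550 (1.35) and AT5G24570 (1.29), all of which fell in both genotypes and less in xrn3-8. They join AT3G13760 (1.68), AT4G32350 (1.52), AT1G51090 (1.39), AT1G54050 (1.36) and AT5G01740 (1.34). With a symbol these were EXLA2 (1.2), ELC (1.14), KICP-02 (1.14), XTH33 (1.13), psbD (0.98), UGT85A2 (0.97), OCT1 (0.94) and GAT1_2.1 (0.91). Among genes that moved in opposite directions or rose more in xrn3-8 were AT5G43520 (1.08), AT3G05170 (0.83), AT2G44380 (0.94) and AT2G44370 (0.88).

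Members above 0 of the transporter and conjugating enzyme lists were UGT88A1 (0.82), UGT71C3 (0.72), GTR1 (0.78), AT3G21670 (0.77), AT1G59740 (0.77) and GSTU16 (0.46). Regulators and signalling genes above 0 were CML41 (0.86), CML42 (0.72), PUB43 (0.82), PUB49 (0.46), HAT2 (0.75), BZIP28 (0.69), bHLH121 (0.65), WRKY47 (0.49) and AT2G21230 (0.49), listed as bZIP30. The iron regulator bHLH121 fell to 49.8% in Col-0 and 77.9% in xrn3-8. Others above 0 were psbC (0.77), EXLA1 (0.70), the tetraspanin TET5 (0.64), CYP71B26 (0.59), AT3G46960 (0.51), TBL41 (0.50), SCPL34 (0.44) and the pseudogenes AT3G21020 (0.75) and AT3G17110 (0.54). Several of these calls were fragile, since of the 12 fits without 1 array TBL41 passed in 1, SCPL34 and AT3G17110 in 3, GSTU16 in 5 and AT2G21230 in 8. With the replicate block TBL41, SCPL34 and WRKY47 lost their calls. Of the 82 called named genes, 26 lost theirs with the hybridization controls as the centre. Above 0 these included HAT2, BZIP28, bHLH121, CML42, EXLA1, TET5, AT3G21020 and PUB49.

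Below 0 the leading genes were AT5G01700 (-3.71), AT1G74400 (-2.58), AT2G18100 (-2.51), AT4G27270 (-2.40), AT1G76170 (-2.34), AT1G19190 (-2.31), AT1G56670 (-2.11), AT4G27510 (-2.11), AT2G44510 (-2.09) and NRPD7 (-2.06). Genes that rose less in xrn3-8 were AT5G39020 (-1.96), AT1G19025 (-1.57) and AT5G22540 (-1.43). With a symbol these were MBAC1 (-1.28), BHLH101 (-1.08), EXPA4 (-1.04), MAP1B (-1.0), PDF1.2 (-0.90), IKU2 (-0.87) and CYP71B37 (-0.85). The receptor kinase IKU2, known for endosperm growth, had 3 of its 4 group means below the arrays' lower quartile, and CYP71B37 had both xrn3-8 means there. List members below 0 were AT1G47400 (-1.36), PUB24 (-0.80), Prx37 (-0.80), SWEET17 (-0.75), CYP71B29 (-0.70), EXPA8 (-0.68), the MADS-box factor AGL21 (-0.62), AT5G47700 (-0.59), scpl29 (-0.55), AT2G45710 (-0.52), PYK10 (-0.51), AT5G22440 (-0.48), GH9B7 (-0.44) and TBL45 (-0.42), and the pseudogenes AT3G47330 (-0.66) and AT5G40920 (-0.60). Of the 12 fits without 1 array TBL45 passed in 2 and GH9B7 in 8. With the hybridization controls as the centre AGL21, AT5G47700, scpl29 and AT5G40920 were among those that lost their calls.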

How the results depend on the processing

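The count of 1830 probe sets was 1720 to 2184 under the replicate block, array weights, a prior variance that follows the signal, without the dimmest 40% of probe sets, without cross-hybridizing probe sets, with quantile normalization (922 above and 798 below) and with Bacillus subtilis centring, and 1517 with housekeeping genes as the centre. With Bacillus subtilis centring 456 were above and 1682 below 0, and with hybridization controls 607 passed, 233 above and 374 below. An adjusted p under 0.01 left 771, with 476 above and 295 below, and a 2-fold minimum left 182, with 72 and 110. Leaving out 1 array gave 1233 to 1704 calls, 792 to 1114 above and 441 to 635 below, with 1 sample fewer in the fit. The replicate block gave 1940, with 1220 and 720, of which 1737 were among the 1830. In none of the 23 alternatives did a shared call change direction, but the settings left little room for it. Centring moved every interaction by 0.163 or less, under the smallest size called, 0.343. The stricter thresholds reuse the same values, and the other fits share most or all of the arrays. Of the 82 called named genes, 33 passed in the same direction under every alternative that tested them, as did 28 of the 35 leading ones. None reversed. The 2-fold minimum alone left 33, so both counts follow the size of the interaction and do not measure stability under processing. Centring kept 56 of the 82 with hybridization controls, 71 with Bacillus subtilis controls and 75 with housekeeping genes. On the linear scale 39 of the 1830 had the opposite sign, 33 of those above 0 and 6 of those below. The cause of the changes with scaling was not tested. Low signals limit the rest, since 28.9% of all probe sets had a group mean below the lower quartile of its arrays.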
